A study of Drosophila melanogaster with 84 samples.

Results

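Hr38, stripe (sr), kayak (kay), Jun-related antigen (Jra) and cabut (cbt) are 5 of the 15801 genes counted in single sorted clock neurons of the adult Drosophila brain, and they were picked by name as activity-regulated transcription factor genes. Such genes are transcribed soon after a neuron is strongly stimulated, and their RNA is short lived, so their level is widely read as a trace of recent firing. They also respond to stress and to growth factor signals, and the enzymatic dissociation and sorting that precede single-cell sequencing can induce them. No undissociated tissue was measured in these libraries, so RNA present in the living brain and RNA induced during dissociation cannot be told apart.

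The genes act at different points of this response. Hr38 encodes the only fly member of the NR4A family of orphan nuclear receptors, and its transcript is among the best known markers of recent activity in insect neurons. The sr gene encodes a zinc finger factor of the EGR family, known first for its role in tendon cells and also used as an activity marker in the fly brain. The products of kay and Jra are the fly Fos and Jun proteins, which pair to form the AP-1 factor downstream of JNK and ERK kinases. The cbt gene encodes a zinc finger repressor of the Sp1/KLF class that responds to dietary sugar through the Mondo-Mlx factor and has been tied to the output of the circadian clock.

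Neurons were marked with EGFP through Clk856-GAL4, a driver active in most clock neurons and also in some cells outside the clock network, and brains came from equal numbers of male and female adult flies whose age was not stated further. Flies were kept for 3 days in 12 h of light and 12 h of darkness (LD), and the DD flies then spent 3 days in constant darkness. Cells were collected at 6 times of day (ZT in LD and CT in DD, hours 2, 6, 10, 14, 18 and 22) in saline that held blockers of glutamate receptors and of sodium channels, digested with papain at room temperature and sorted 1 per well. All groups carried the same driver and reporter, and no group was stimulated, silenced or mutant.

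The 84 libraries, 36 from LD and 48 from DD, held 8060 wells, of which 5001 (2600 LD and 2401 DD) had 1000 to 6000 genes and 6000 to 75000 unique molecular identifiers (UMIs) and were kept. Library totals ran from 677725 to 4259643 UMIs in LD and from 191993 to 3848092 in DD, and the median kept well held 17302 UMIs in LD and 13702 in DD. Libraries of the same time and light condition that share a number in their titles were summed into 28 batches, 14 in LD and 14 in DD, which are the replicates throughout. The 14 batches carry 6 title numbers in LD and 10 in DD, since a number can recur at several times, and batches of 1 number may not be separate. The 2 light conditions shared 0 of these numbers, so light and batch cannot be told apart. Levels are given as TP10K, the number of UMIs of a gene per 10000 UMIs of all genes, a count of 3′ ends that is not divided by gene length and is compared here only within a gene. Neuron markers summed to 31.6 to 58.3 TP10K per batch in LD and 51.6 to 64.0 in DD. Glial markers stayed under 2 TP10K except in ZT06 batch 2 (9.98), ZT14 batch 1 (8.76), CT10 batch 2 (3.41), CT10 batch 1 (3.13) and ZT22 batch 3 (2.75). All libraries used the same 96 well barcodes by design.

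On the dm6 assembly, Hr38 (FBgn0014859) occupies bases 20683462 to 20714588 of chromosome 2L, minus strand, with 2 annotated transcripts. The sr gene (FBgn0003499) covers 18090803 to 18135583 of chromosome 3R on the plus strand, and kay (FBgn0001297) covers 29765995 to 29794113 of the same arm and strand, each with 5 transcripts. Jra (FBgn0001291), the shortest of the genes, spans 10096480 to 10098556 of chromosome 2R on the plus strand. The cbt gene (FBgn0043364) spans 476446 to 479688 of chromosome 2L on the minus strand. Exons of Hr38, Jra and cbt overlap the spans of CG2617, RpLP0-like and ush on the other strand. Whether they meet exons of these genes was not looked up. The strand setting of the counting was not given in the sources used here, so reads of these pairs may have been shared. Exons of sr and kay overlapped no exon of another gene.

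Each of the genes was present at low copy. In LD, the Hr38 level per batch was lowest at 0.230 TP10K, with a median of 0.594 and a highest value of 2.04, and in DD it was lowest at 0.0997, with a median of 0.194 and a highest value of 0.869. Every LD batch thus lay above the DD median, and the ranges overlapped. The sr level ran from 0.639 to 2.82 TP10K in LD with a median of 1.60, and from 0.363 to 1.54 in DD, where its median was 0.882. The kay level ran from 0.230 to 0.927 TP10K in LD with a median of 0.528, and from 0.345 to 1.13 in DD, where the median was 0.641. These kay ranges overlapped from 0.345 to 0.927 TP10K. The Jra level ran from 0 to 0.394 TP10K in LD with a median of 0.156, and from 0 to 0.482 in DD, where its median was 0.175. Jra was not detected in ZT22 batch 2 or CT06 batch 2, where a count of 0 allows up to 0.0531 and 0.121 TP10K, counting error only. The cbt level ran from 0.301 to 1.03 TP10K in LD with a median of 0.767, and from 0.520 to 1.53 in DD, where its median was 0.679.

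The molecules were spread unevenly over wells. After each well was thinned to 6000 UMIs, Hr38 was found in 26.7% of LD wells and 11.6% of DD wells (48.0% and 24.1% unthinned), and sr in 42.4% and 26.7% (64.2% and 45.1% unthinned). For kay the thinned shares were 21.3% and 20.9%, for Jra 7.04% and 8.08%, and for cbt 29.0% and 23.7%. The shares of Hr38 and sr were the ones farthest apart between LD and DD at matched depth, and these shares of wells were not tested. The counts of rich wells that follow are from unthinned wells, which were deeper in LD, so they are not at matched depth. Wells with 10 or more Hr38 UMIs numbered 80 of 2600 in LD and 8 of 2401 in DD, and for sr 225 and 114. The richest 5% of wells, also unthinned, held 38.2% of all Hr38 UMIs in LD and 50.6% in DD. For kay, 34 LD wells and 37 DD wells had 10 or more UMIs, and for cbt 63 and 80, so the unthinned count of rich wells did not fall in DD for these 2 genes. The level of free RNA could not be set beside these shares, because the empty wells are not named in the files and no sorted cell class is known to lack the genes.

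The main difference between the light conditions was in Hr38 and sr, which fell in constant darkness in the test over batches, while the AP-1 genes and cbt did not pass the test. At ZT06 the Hr38 batches read 1.37 and 2.04 TP10K, against 0.165, 0.242 and 0.146 at CT06. At ZT22 they read 0.941, 0.230 and 1.07, against 0.190 and 0.197 at CT22, and at ZT18 0.499 and 0.378, against 0.0997 and 0.124 at CT18. All LD batches lay above all DD batches at 5 of the 6 times, and the exception was hour 10, where the LD batches read 0.384, 0.676 and 0.383 and the DD batches 0.869, 0.616 and 0.118. Of the 9556 genes tested, 46 (0.481%) separated in this direction at 5 or more times, and 564 (5.9%) at 3 or more. The sr batches separated at 3 times, hours 2, 6 and 14. At hour 6 sr read 1.76 and 2.82 TP10K in LD against 0.602, 0.363 and 1.42 in DD, and at hour 10 the ranges overlapped, with 0.932, 2.64 and 0.639 in LD and 0.888, 1.54 and 0.875 in DD. For kay and Jra the LD batches lay above at 1 time each, and for Jra the DD batches lay above at hours 14 and 18, while cbt separated at 0 times. The shares of all genes that separate at so few times, or with DD above, were not worked out. These kay and Jra counts are therefore not read as a difference.

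**Figure D1:**
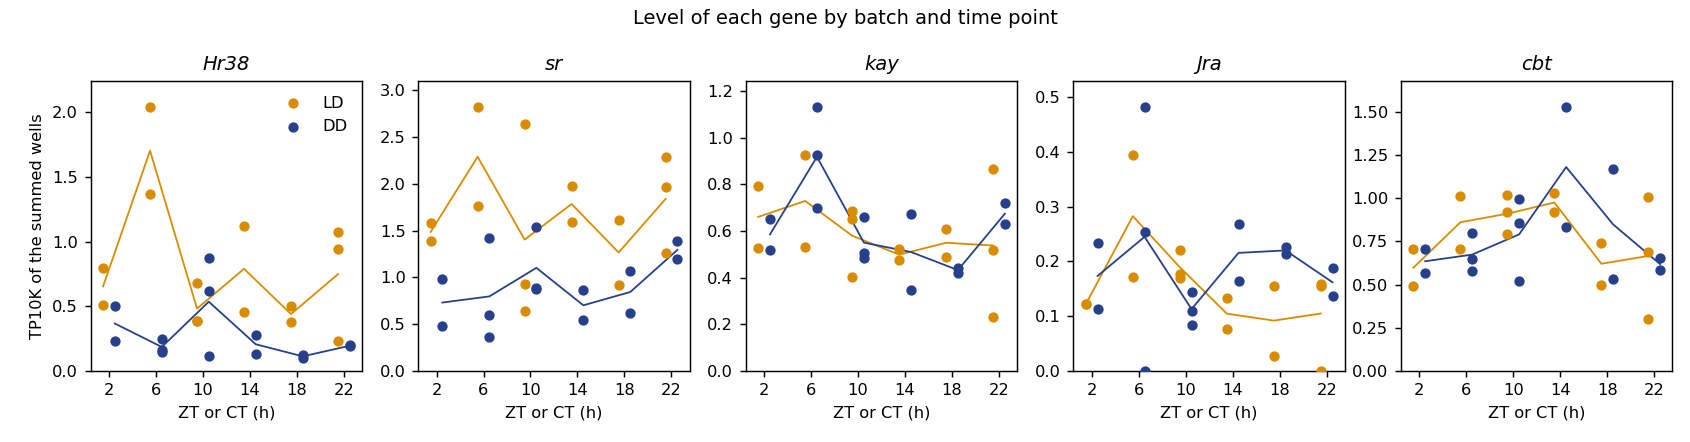
Level of Hr38, sr, kay, Jra and cbt in TP10K (y axis) by hour of day (x axis, ZT in LD and CT in DD) in all kept wells. Each dot is a batch (orange LD, blue DD) and lines join the means of the batches at each time; the orange Hr38 dots lie above the blue ones except at hour 10, whereas the kay, Jra and cbt dots mix.

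Across all times, Hr38 in DD was 27.4% of its LD level, a 3.65-fold difference (log2 difference -1.87, SE 0.35, 14 against 14 batches, edgeR quasi-likelihood test with Benjamini-Hochberg adjusted p = 0.00183). The sr level in DD was 45.2% of that in LD (log2 difference -1.14, SE 0.24, adjusted p = 0.00441). The differences of kay (-0.28, SE 0.18, adjusted p = 0.364), cbt (-0.31, SE 0.16, adjusted p = 0.263) and Jra (0.03, SE 0.36, adjusted p = 0.979) did not pass. So 2 of the 5 genes were called, both lower, where 6.89% of all genes tested were called and 4.75% were called lower, around a median log2 difference of -0.0042. Both calls held in each of 28 fits that left out 1 batch, with Hr38 between -2.03 and -1.74 and sr between -1.25 and -1.04. With the depth per well as a covariate Hr38 was -1.70 and sr -1.13. Without the 5 batches of high glial markers and the batch of 8 wells, a choice made after seeing the data, Hr38 was -2.17 (adjusted p = 0.000127) and sr -0.99 (adjusted p = 0.0179). The sign of the smaller differences depends on the scale. The means of the batches in TP10K, 0.587 in LD and 0.629 in DD for kay and 0.774 and 0.783 for cbt, go the other way from the fitted values, which follow the TMM normalization. With total UMIs as the only scale, also chosen after seeing the data, the median gene was 0.29 higher in DD, kay was 0.022 and cbt -0.0094, while Hr38 (-1.57, adjusted p = 0.00541) and sr (-0.85, adjusted p = 0.0155) were still called. On that scale 1399 genes were called higher and 210 lower, against 204 and 454 with TMM. The fits above take batches as separate, although those of the same title number were more alike at the median. The calls were therefore also set against the title numbers. With the number as a random effect (limma voom) Hr38 was -1.77 (adjusted p = 0.00972) and sr -1.06 (adjusted p = 0.0305). With 1 sum per number, 6 against 10 and no term for the time, both estimates stayed below 0 but neither passed (Hr38 -1.41, edgeR adjusted p = 0.14; sr -1.06, adjusted p = 0.0927), and 59 of 8512 genes were called. CG2617, which overlaps Hr38, differed by -0.23 (adjusted p = 0.773). In these sums fewer cells with a transcript and less transcript per cell give the same change. The lower thinned shares of wells with Hr38 and sr in DD cannot tell these apart. At such low copy, less transcript per cell also lowers the share of wells with a UMI.

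Single genes of the pathways that drive or follow activity-regulated transcription were called lower as well. Each count below stands beside the 4.75% of all genes called lower. The lists were not tested as sets, and counts of so few genes are not read as the fall of a pathway. In the list of ERK signalling and its feedback, 4 of 16 genes fell and 0 rose in DD, with a list median of -0.34, beside 4.75% of all genes called lower. They were Mkp3, the phosphatase that inactivates ERK (-1.12, adjusted p = 0.000218), aop, an Ets repressor under ERK control (-0.76, adjusted p = 0.00916), kek1, an inhibitor of the EGF receptor (-0.52, adjusted p = 0.0188), and sty, the fly Sprouty (-0.49, adjusted p = 0.0368). Of 13 AP-1 and JNK genes, 1 fell, which was puc, a phosphatase that JNK signalling induces to limit itself (-0.72, adjusted p = 0.0443). Of 15 genes from calcium and cyclic AMP to CREB, 2 fell, the coactivator nej (-0.47, adjusted p = 0.0233) and Mef2 (-0.52, adjusted p = 0.0443), and none rose. Among 15 nuclear receptor and ecdysone genes, tai (-0.68), ftz-f1 (-0.63) and EcR (-0.60) fell and Hr96, a receptor of lipid metabolism, rose (0.94, adjusted p = 0.0145). None of 8 sugar sensing and Sp1/KLF genes passed, by edgeR's quasi-likelihood test. These calls, apart from those of Mkp3 and Hr96, were lost with total UMIs as the scale, and with 1 sum per title number Mkp3 alone of them held (-1.07, adjusted p = 0.00773).

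Heat shock genes were also lower in DD, and whether they follow Hr38 or sr from batch to batch was not tested. In DD 10 of 17 fell and 0 rose, with a median of -0.97, beside 4.75% of all genes called lower. Among them were the stress-induced noncoding RNA lncRNA:Hsromega (-1.56, adjusted p = 3.29e-05), Hsp27 (-1.26), the Hsp40 gene DnaJ-1 (-1.01) and Hsp70Aa (-1.43), one of several near-identical Hsp70 copies among which reads may be split. Their summed level per batch was 55.5 TP10K at lowest, 116 at the median and 148 at highest in LD, and 35.4, 55.6 and 123 in DD. These ranges overlapped, but 13 of the 14 LD batches lay above the DD median and 1 DD batch above the LD median. With total UMIs as the scale 6 fell and 1 rose, and with 1 sum per title number 1 fell, Hsp27 (adjusted p = 0.0396). Of the 8 clock genes, cwo (-0.75), Clk (-0.71) and Pdp1 (-0.56) fell, beside the same share of all genes, and none of them with total UMIs or with 1 sum per number. In the TMM fit none of the tested neuron, glia, hemocyte, fat body, photoreceptor or muscle markers passed, though with total UMIs the neuron markers nSyb (0.30) and Syt1 (0.39) rose. Fat body markers summed to 0.0131 to 8.72 TP10K in LD and 0 to 0.122 in DD. The part of the stress genes, of the marker levels and of the depth of the wells in the Hr38 and sr difference was not tested beyond the fits given above.

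**Figure D2:**
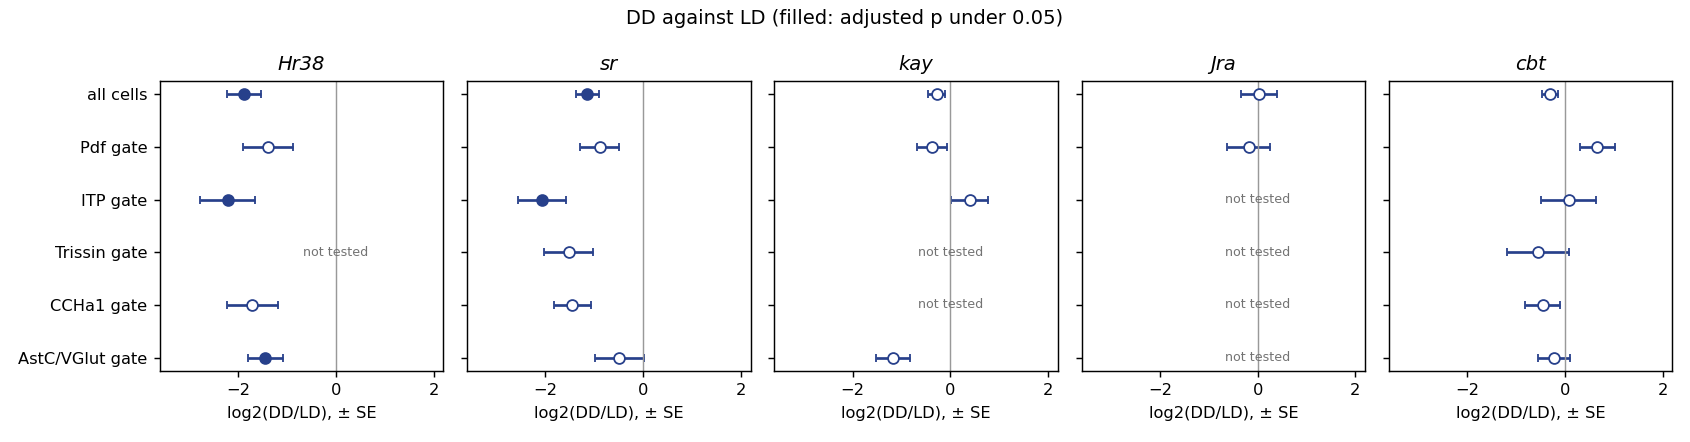
Difference between constant darkness and LD (x axis, log2 of DD over LD) for each of the 5 genes in all kept wells and in the 5 marker gates (y axis), with bars of 1 SE. Filled points have an adjusted p under 0.05 and genes removed by the filter on low counts are marked as not tested; the Hr38 and sr points lie below 0 wherever they were tested.

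No 24 h rhythm of the genes was called in the pooled cells. In LD, 0 of the 5 genes passed where 21 of 8006 (0.262%) did, with 0 of the 5 at an unadjusted p under 0.05 and 0 called by DESeq2. The genes called included tim with a peak-to-trough log2 amplitude of 3.89 (edgeR adjusted p = 0.00557), vri, Clk and Pdp1. The clock genes per (amplitude 2.89, edgeR adjusted p = 0.491), cwo (0.142), cry (0.223) and cyc (0.822) did not pass in LD. In DD even tim did not pass, with an amplitude of 2.16 (edgeR adjusted p = 0.889). A gene that was not called here may therefore still have a rhythm. The highest Hr38 level was at ZT06 in LD, where the mean of batches was 1.70 TP10K, against 0.438 at ZT18, yet its fitted amplitude of 1.03 with a peak at 4.72 h had an adjusted p of 0.661 by edgeR's quasi-likelihood test. Jra had an amplitude of 1.37 (adjusted p = 0.60), cbt 0.62 (0.614), kay 0.39 (0.860) and sr 0.28 (0.945), beside a median of 0.66 over all genes. The mean cbt level had its highest value at hour 14 in both conditions, with 0.975 TP10K in LD and 1.18 in DD, and was lowest at hour 2 in LD (0.598) and at hour 22 in DD (0.618). At hour 14 the cbt batches read 0.923 and 1.03 in LD and 1.53 and 0.835 in DD, so the DD batches lay on both sides of the LD ones. The mean kay level was highest at hour 6 in both, at 0.729 TP10K in LD, from batches of 0.530 and 0.927, and at 0.918 in DD, from batches of 0.697, 1.13 and 0.927. In DD the fitted amplitudes of kay and cbt were 0.86 and 0.79, each with an adjusted p of 0.889 by edgeR. In DD 0 of 7818 genes (0%) were called, with 374 at an unadjusted p under 0.05 and 23 called by DESeq2, none of them these 5. The largest DD amplitude among them was that of Hr38, 1.55 with a peak at 7.46 h (adjusted p = 0.889). A difference of the rhythm between LD and DD was called for 0 of 9147 genes (0%), with 1141 at an unadjusted p under 0.05 and 24 called by DESeq2, again none of the 5 (adjusted p 0.665 to 0.948). There were 2 or 3 batches per time, and batches of the same time differed widely. At ZT22, for example, Hr38 read 0.230 TP10K in the batch of 51 wells and 0.941 and 1.07 in the others.

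Wells were then gated on neuropeptide and transporter transcripts, so that the genes could be compared between kinds of clock neuron of the same sort. The gates were Pdf at 150 TP10K or more (426 wells), ITP at 150 (140 wells), Trissin at 40 (169 wells), CCHa1 at 10 (194 wells), and AstC at 50 with VGlut at 8 (448 wells). The 3604 wells in no gate were the reference, and 20 wells in more than 1 gate were left out. Pdf encodes the main neuropeptide by which clock neurons signal to each other, and VGlut marks neurons that release glutamate. The gates are named by these transcripts only. The median well held 19036.5 UMIs in the Pdf gate, 22029 in ITP, 19484 in Trissin, 16236 in CCHa1 and 15798.5 in AstC/VGlut, against 14607.5 in the ungated wells.

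The cbt and Jra levels were higher in Pdf wells than in ungated wells of the same batches. Over 26 batches, cbt in the Pdf gate was lowest at 0 TP10K, 1.35 at the median and highest at 3.52, against 0.0908, 0.617 and 1.11 in ungated wells, and it was above the ungated level in 21 of 26 batches. Its level was 2.01-fold that of ungated wells (log2 difference 1.0, SE 0.22, edgeR adjusted p = 0.00012). Jra in the Pdf gate ran from 0 to 1.19 TP10K with a median of 0.268, against 0 to 0.474 with a median of 0.145 in ungated wells, and was also above in 21 of 26. It was 1.75-fold higher (log2 difference 0.81, SE 0.26, adjusted p = 0.0107). The Jra call was lost without ZT06 batch 1 (0.64, adjusted p = 0.0516) and with doubled gate thresholds (0.69, adjusted p = 0.06), whereas cbt was called in every fit run. RpLP0-like, which overlaps Jra, differed by 0.24 in the Pdf gate (adjusted p = 0.609), and ush, which overlaps cbt, by -0.43 (adjusted p = 0.307). Hr38 (0.02), sr (-0.30) and kay (0.25) did not pass. These 2 calls, both higher, stand beside 27.6% of all genes called in the Pdf gate and 9.2% called higher.

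Calls of lower sr and kay in 3 peptide gates numbered 1 or 2 of 5 genes each, which for ITP and CCHa1 is near the share of all genes called lower there, and the Trissin and CCHa1 calls depend on the scale. In ITP wells sr was lowest at 0 TP10K, 0.720 at the median and highest at 2.71, against 0.380, 1.18 and 3.30 in ungated wells, and it was above the ungated level in 5 of 20 batches. The fitted level was 52.5% of that in ungated wells (log2 difference -0.93, SE 0.26, adjusted p = 0.00454). In Trissin wells sr ran from 0 to 2.53 TP10K with a median of 0.758 and was above in 5 of 22 batches (-0.85, SE 0.25, adjusted p = 0.00626). The median of kay in Trissin wells was 0.299 TP10K with a highest value of 1.23, against 0.532 in ungated wells, and again 5 of 22 batches were above (-0.70, SE 0.22, adjusted p = 0.0109). The median of kay in CCHa1 wells was 0.375 TP10K with a highest value of 1.26, above the ungated level in 7 of 23 batches (-0.61, SE 0.22, adjusted p = 0.0282). A gate sum of 0 rests on few wells, and over all gates and genes it allows up to 1.16 TP10K at most. In the ITP gate 1 of 5 genes was called, lower, where 22.4% of all genes were called and 18% called lower. In the Trissin gate 2 of 5 were called lower (25% of all genes called, 20.5% lower), and in the CCHa1 gate 1 of 5 (23.6% called, 20.2% lower). In the AstC/VGlut gate, by edgeR's test, 0 of 5 passed where 21.8% of all genes did, with 2 of the 5 at an unadjusted p under 0.05 and 0 called by DESeq2.

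The order of the gates differed between the light conditions. By the median over batches, Hr38 in LD read 0.831 TP10K in AstC/VGlut wells, 0.753 in ITP, 0.730 in CCHa1, 0.637 in ungated, 0.532 in Pdf and 0.463 in Trissin wells, and in DD 0.408 in AstC/VGlut, 0.290 in Pdf, 0.273 in CCHa1, 0.145 in ITP, 0.140 in ungated and 0.0949 in Trissin wells. By these medians AstC/VGlut was first and Trissin last in both, and the order of the others changed. Other summaries gave another order in LD. By the mean over batches CCHa1 was first there, with 1.03 TP10K against 0.980 in AstC/VGlut wells. With wells pooled, ungated wells were last in LD, with 0.743 TP10K against 0.807 in Trissin wells. The gates also rest on different sets of batches, and 4 of the 10 Trissin sums in DD were 0. With LD and DD together, no gate passed against the ungated wells in Hr38 (adjusted p 0.108 to 0.967 by edgeR). The unadjusted edgeR p was 0.034 in Trissin and 0.039 in AstC/VGlut wells. The order of kay in LD was AstC/VGlut (0.976), Pdf (0.846), ungated (0.509), ITP (0.469), Trissin (0.414) and CCHa1 (0.375), and in DD ITP (0.657), ungated (0.591), Pdf (0.541), AstC/VGlut (0.361), CCHa1 (0.322) and Trissin (0.206). For cbt the Pdf median was 0.967 in LD, under those of ITP (1.09), CCHa1 (1.09) and AstC/VGlut (1.04), and 1.78 in DD, above the others (0.159 to 1.01). In the test as designed cbt was called in the Pdf gate and kay in CCHa1 and Trissin. Among 10 alternatives cbt was also called in AstC/VGlut wells in 3 and in CCHa1 wells in 2. Neighbours within these orders were not tested against each other, nor were the orders between LD and DD.

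Single genes of the pathways around the 5 were called in the gates, though several list counts lay near the shares of all genes. All genes were called higher and lower at 9.2% and 18.4% in Pdf wells, 4.39% and 18% in ITP, 4.5% and 20.5% in Trissin, 3.43% and 20.2% in CCHa1, and 5.88% and 16% in AstC/VGlut wells. The phosphatase gene puc, a target of JNK and AP-1, was higher in Pdf wells (log2 difference 1.08, adjusted p = 6.15e-08) and in AstC/VGlut wells (1.20, adjusted p = 4.65e-09) than in ungated wells. The JNK gene bsk was lower in Pdf wells (-0.45, adjusted p = 0.000384), as was the JNK kinase gene Mkk4 (-0.70, adjusted p = 2.88e-05), so that 1 of 12 AP-1 and JNK genes was called higher and 2 lower there, near the shares of all genes. Among 6 sugar sensing and Sp1/KLF genes in Pdf wells, Mondo, which encodes the sugar sensor known to induce cbt, was higher (1.25, adjusted p = 3.49e-08), and Sp1 (-1.02) and luna (-0.97) were lower. The ERK feedback gene sty was lower in all 5 gates, from -2.73 in ITP to -0.84 in CCHa1 wells, and so was kek1, from -1.88 in ITP to -1.09 in AstC/VGlut wells. CrebA was higher in Pdf (2.19), Trissin (1.52) and ITP (1.18) wells. Of 15 genes from calcium and cyclic AMP to CREB, 5 were called higher and 7 lower in Pdf wells, 2 and 6 in ITP, 2 and 5 in Trissin, 0 and 5 in CCHa1, and 2 and 6 in AstC/VGlut wells, with edgeR's quasi-likelihood test. These counts depend on the scale, and with the size factors of DESeq2 the genes called lower numbered 4, 1, 3, 0 and 4.

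These gate differences depend on the scale. The median log2 difference of all genes was -0.14 in the Pdf gate, -0.30 in ITP, -0.31 in Trissin, -0.33 in CCHa1 and -0.18 in AstC/VGlut, and with the size factors of DESeq2 it was 0.01, -0.11, -0.10, -0.10 and -0.09. Calls split into 755 higher and 1513 lower in the Pdf gate with the main scaling and 1128 and 1073 with the size factors, and into 369 and 1684 against 648 and 932 in Trissin. In the ITP gate the splits were 360 and 1474 against 571 and 852, in CCHa1 281 and 1658 against 459 and 710, and in AstC/VGlut 482 and 1310 against 630 and 949. Relative to the gate's median gene, cbt was 1.14 and Jra 0.95 higher in Pdf wells on the log2 scale, sr was lower at -0.63 in ITP and -0.54 in Trissin wells, and kay at -0.39 in Trissin and -0.28 in CCHa1 wells. With the size factors cbt, Jra and the ITP call of sr held, while both Trissin calls (sr adjusted p = 0.0683, kay 0.109) and the CCHa1 call of kay (0.269) did not. With total UMIs as the scale the same 3 calls were lost (0.0554, 0.0995 and 0.21). The CCHa1 call of kay held in 18 of 28 fits that left out a batch. It was lost without batch 1 of CT06, CT14, CT18, ZT02, ZT06, ZT10, ZT14 or ZT18, batch 2 of CT18, or batch 2 of ZT22, with adjusted p up to 0.0765.

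Set against the mean of the other 4 gates instead of the ungated wells, Pdf wells were higher in cbt (0.66, adjusted p = 0.00498), in Jra (1.12, adjusted p = 9.06e-05) and in kay (0.56, adjusted p = 0.00363). AstC/VGlut wells were higher in Hr38 (0.55, adjusted p = 0.0225) and kay (0.45, adjusted p = 0.0342), and Trissin wells lower in Hr38 (-0.66, adjusted p = 0.0444) and kay (-0.63, adjusted p = 0.0252). The ITP and Trissin differences of sr did not pass in this contrast. Of 17 heat shock genes, 13 were called higher and 2 lower in Pdf wells and 12 and 2 in AstC/VGlut wells, where 9.2% and 5.88% of all genes were called higher. In the other gates the counts were 0 and 1 in ITP, 2 and 1 in Trissin, and 1 and 2 in CCHa1 wells, but with the size factors 9 were called higher in Trissin and 6 in CCHa1 wells. The Pdf and AstC/VGlut gates are also those where none of the 5 genes was called lower, and the part of the stress genes in the gate differences was not tested. Of the 8 clock genes, 5 were called higher in Pdf wells, 2 in ITP, 4 in Trissin, 6 in CCHa1 and 7 in AstC/VGlut wells and 0 lower, beside the shares of all genes given above.

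**Figure D3:**
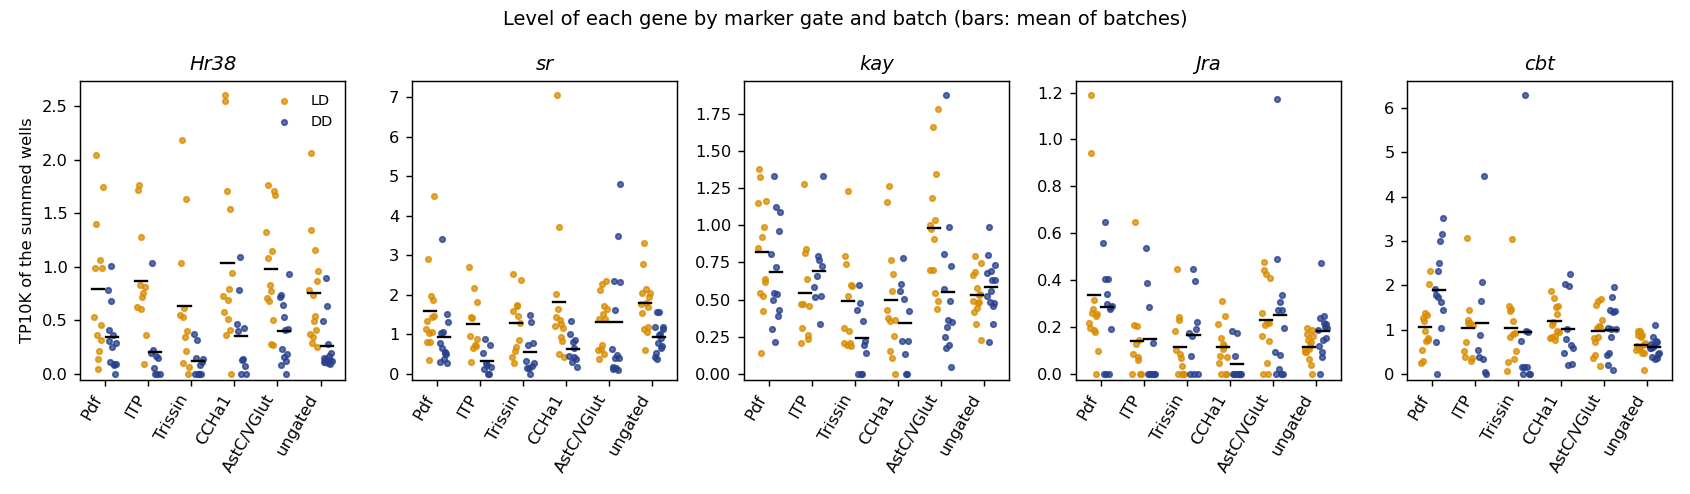
Level of Hr38, sr, kay, Jra and cbt in TP10K per batch (y axis) in the 5 marker gates and in ungated wells (x axis), LD and DD apart. Dots are batches with 3 or more wells and bars their mean; cbt in Pdf wells reaches 3.52 TP10K while it stays at or under 1.11 in ungated wells.

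The fall in darkness was seen for Hr38 in ITP and AstC/VGlut wells and for sr in ITP wells. In ITP wells Hr38 was lowest at 0.0951 TP10K, 0.753 at the median and highest at 1.76 in 11 LD batches, and 0, 0.145 and 1.03 in 9 DD batches. The sr level there was 0.295, 0.964 and 2.71 in LD and 0, 0.218 and 0.876 in DD. The ranges overlapped for both genes, with the DD medians under the lowest LD value for sr only. Hr38 in DD was 21.6% of LD (log2 difference -2.21, SE 0.56, adjusted p = 0.047) and sr 23.9% (-2.07, SE 0.50, adjusted p = 0.0415). That made 2 of the 4 genes tested called lower where 1.5% of all genes were called and 1.14% lower. The ITP gate had 3 LD sums and 0 DD sums at hour 10, the time at which Hr38 in all cells did not separate. Both calls were lost when sums of under 6 wells were left out, when wells of low entropy were dropped and when the gate threshold was doubled. The Hr38 call held in only 2 of 20 fits that left out a batch, those without CT02 batch 2 and without ZT18 batch 2. The sr call held in 11 of 20, and was lost without batch 2 of CT02, CT14, CT18, CT22 or ZT14, batch 1 of CT14, CT18 or ZT02, or batch 3 of ZT22.

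In AstC/VGlut wells Hr38 ran from 0.272 to 1.76 TP10K in LD with a median of 0.831, and from 0 to 0.931 in DD, where the median was 0.408. It was 36.7% of LD in DD (-1.45, SE 0.36, adjusted p = 0.0272), the only call among the 4 genes tested there, beside 1.86% of all genes called and 1.59% called lower. The call was lost without batch 2 of ZT06 or ZT14 and without batch 1 or 3 of ZT22 (adjusted p up to 0.0758), and with doubled thresholds (adjusted p = 0.10), while with thinned wells the filter on low counts removed the gene, so that it was not tested. The kay level there had a median of 0.976 TP10K in LD and 0.361 in DD, a difference that did not pass (-1.17, SE 0.36, adjusted p = 0.0880). In Pdf wells Hr38 (-1.39, adjusted p = 0.108) and sr (-0.89, adjusted p = 0.188) did not pass, where 4.25% of all genes did. By edgeR's test 0 of the 5 genes were called in that gate, with 2 at an unadjusted p under 0.05 and 1 called by DESeq2. In CCHa1 wells sr (-1.45, adjusted p = 0.0713) and Hr38 (-1.71, adjusted p = 0.111) did not pass beside 1.07% of all genes. There 0 of 3 genes were called by edgeR, with 2 at an unadjusted p under 0.05 and the same 2 called by DESeq2. In Trissin wells 0 of 2 genes tested were called by edgeR or DESeq2 beside 1.55% of all genes, with 1 at an unadjusted p under 0.05, sr at -1.52 (adjusted p = 0.155). All estimates for Hr38 and sr were thus below 0, and whether they differ between gates was not tested. The JNK and AP-1 target puc fell in ITP wells (-2.21, adjusted p = 0.047) and in Pdf wells (-1.09, adjusted p = 0.0185), and lncRNA:Hsromega fell in every gate, from -1.51 in ITP and -1.53 in CCHa1 wells to -1.19 in Pdf wells.

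Within the gates, too, no rhythm of these genes passed the test. The shares of all genes called rhythmic were 7.82% in Pdf, 2.46% in ITP, 4.44% in Trissin, 1.56% in CCHa1 and 7.6% in AstC/VGlut wells, and 0 of 5, 4, 2, 3 and 4 of these genes, respectively, were called by edgeR. Of these 18 tests 6 had an unadjusted p under 0.05, and DESeq2 called 1, cbt in Trissin wells. By edgeR the lowest adjusted p was also that of cbt in Trissin wells, with an amplitude of 2.80 and a peak at 13.4 h (adjusted p = 0.138), followed by Hr38 in ITP wells with 2.44 and a peak at 5.27 h (adjusted p = 0.183). In Pdf wells, where the 5 genes did not pass, the kinase gene Pka-C1 (2.32), CrebA (2.62), Crtc (1.04), CrebB (1.23), Mkp3 (2.05) and sty (1.29) were called rhythmic, with amplitudes on the log2 scale.

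With LD and DD together, wells with Hr38 more often held sr or cbt, and wells with sr or Jra more often held cbt. For other pairs the shares were closer. At 6000 UMIs per well, sr was found in 47.9% of wells with Hr38 and in 31.7% of wells without it, and the share was higher with Hr38 in 21 of 27 batches. The difference had the same direction in LD (52.0% against 38.9%) and in DD (37.6% against 25.2%). The share with cbt was 34.2% with Hr38 and 24.6% without it, higher in 19 of 27 batches. In LD it was 36.7% against 26.1%, higher in 13 of 14 batches. In DD it was 28.0% against 23.2%, higher in only 6 of 13. With sr the share with cbt was 30.7%, and 24.2% without it, higher in 19 of 27 batches. In DD these shares were 26.25% and 22.8%, higher with sr in only 7 of 13. Wells with Jra held cbt in 33.7% of cases and those without it in 25.9%, higher in 19 of 24. The share with sr was 36.5% with kay and 34.4% without it, a smaller difference that was higher in 15 of 27 batches and was not seen in DD (26.4% against 26.7%). The shares with cbt were close in wells with and without kay, 27.6% and 26.1% (in DD 21.5% and 24.3%), and higher with kay in 11 of 27 batches. Jra was found in 8.22% of wells with Hr38 and 7.37% without it, higher in 12 of 27. Jra with and without kay gave 8.41% and 7.30%, higher in 11 of 27. In LD 26.3% of wells held none of the 5 genes, 36.8% held 1, 10.3% held 3, 2.42% held 4 and 6 wells held 5. In DD 37.1% held none, 40.3% held 1 and 0 wells held 5. These shares describe wells of the same batches and pool gates of different levels.

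**Figure D4:**
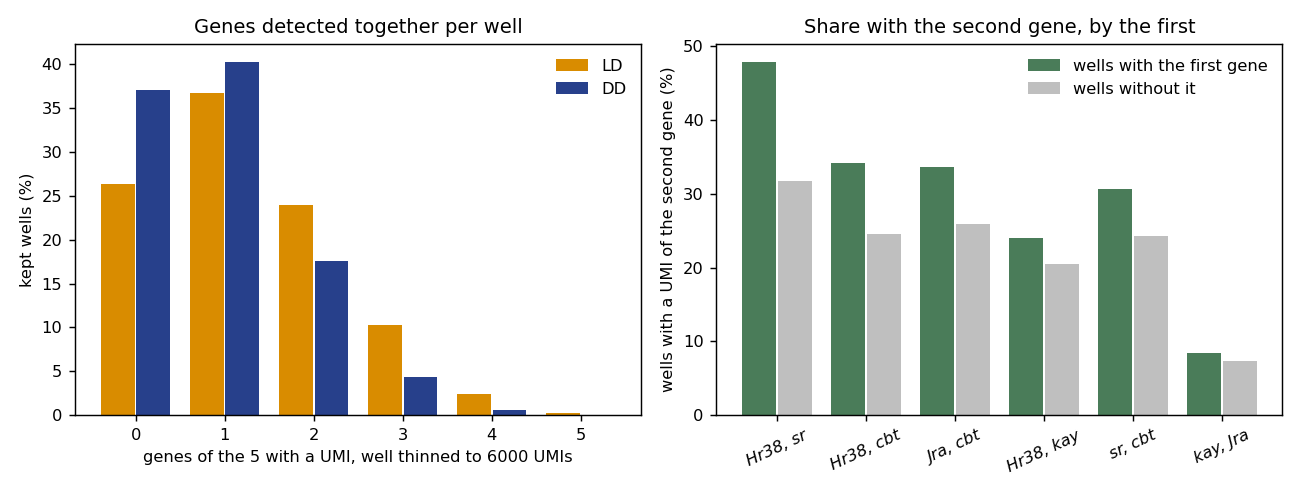
Left, percentage of kept wells (y axis) by how many of the 5 genes had a UMI (x axis) in LD and DD; right, percentage of wells with a second gene (y axis) among wells with and without the first, for 6 pairs (x axis). Wells were thinned to 6000 UMIs; sr is found in 47.9% of wells with Hr38 and in 31.7% of wells without it.

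Across batches the levels of the genes moved together weakly. Among 10 pairs the pooled correlation of Hr38 and sr (r = 0.547, 28 batches) joins batches that fall apart by light. Within LD it was r = 0.462 (permutation p adjusted over the pairs 0.137) with rho = 0.363 (0.339), and within DD r = 0.046 (adjusted p by permutation 0.974). Jra and cbt correlated in LD (r = 0.749, permutation p adjusted 0.020), though rho was 0.525 (0.339) and r fell to 0.327 without the 2 batches farthest from the median of Jra, so that relation rests on those batches. It did not pass with 1 TP10K added (adjusted permutation p = 0.0547) or with thinned wells (r = 0.586, adjusted permutation p = 0.0864), and in DD r was 0.093. By log2 CPM over the 28 batches, the genes whose pattern was most like that of Hr38 were Myo81F (r = 0.818) and Cyp49a1 (0.811). For sr they were led by Dlg5 (0.808) and included AstC-R2, a receptor of the peptide AstC (0.761). The closest to kay was Unc-115b (0.761), to Jra Tbp, the TATA-binding protein (0.918), and to cbt CG13298 (0.762), with the clock repressor gene cwo (0.715) among its 5 closest. Jra and Tbp were both low, with geometric means of 0.131 and 0.105 TP10K, and the part of low counts in their likeness was not tested. Some of these likenesses differed by light. For cbt and cwo r was 0.864 in LD and 0.296 in DD, and for Hr38 and Myo81F 0.197 in LD and 0.735 in DD. Among all 9556 genes sr came 165th by likeness to Hr38 (r = 0.597), and these likenesses are descriptions over batches that share light, time and depth.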

How the data were processed

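The deposited tables hold raw UMI counts per gene and well, which the authors made with CEL-Seq2 libraries, bcl2fastq 2.20, zUMIs and STAR on dm6 from UMIs that fell in exons; the annotation release and the strand setting were not given in the sources used here. Spike-ins (2.17% of UMIs in kept wells) and EGFP (0.208%) were left out of totals. Kept wells were summed per batch and, with 3 or more wells, per gate and batch. Genes were tested over the whole table with edgeR 4.0.16 (R 4.3.3; filterByExpr, TMM, quasi-likelihood F test, Benjamini-Hochberg adjustment, threshold 0.05), and p-values measure the spread between batches, which the sources do not tie to separate groups of flies. The comparison of light conditions had time as a factor (in gates, 24 h cosine and sine terms), rhythms used cosine and sine terms, and gates had batch as a block. For gates against ungated wells the p-values thus measure how the gate difference varies over batches. Named genes were all 5 genes plus the list members past the threshold with the lowest adjusted p. The 5 genes and the lists were chosen with earlier results of these data known. Fits were also run on simulated counts of independent batches. These held no likeness within a title number, so they cannot check the p-values for it. Correlations used permutation tests (scipy 1.17.1, numpy 2.4.6, Python 3.11.15). Alternatives were DESeq2 1.42.0, its size factors, limma 3.58.1 voom, total UMIs as the scale, sums or a random effect per title number (these added after seeing the data), no filter on low counts, an entropy limit of 5.5 (4595 wells), wells thinned to 6000 UMIs, libraries as units, and each batch left out. The genes usp, Pepck1, Pepck2, Hsp22, Syx1A, para, alrm and fit of the lists were not analysed here.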

Additional observations from a re-analysis of the deposited data

Results flagged for a closer look

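Among the libraries of each light condition and time, 6 of 60 groups of values for the 5 genes held 1 library that stood apart from the rest; chance alone gives about 1 in 20. Library 3 of CT02 read 1.06 TP10K for Hr38, the next highest 0.358. Library 2 of CT02 read 1.82 TP10K for cbt against 0.613 for the next, from 24 wells, and library 7 of CT06 read 1.89 for sr against 0.925. At ZT10, library 4 read 2.64 TP10K for sr, apart from the others above, and library 6 read 0.642 for cbt, apart below. Library 4 of ZT22 held 0 Jra UMIs.

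The wells left out by the limits on genes and UMIs also held these transcripts. In 853 LD wells outside the limits, with a median of 2514 UMIs, the levels were 0.452 TP10K for Hr38, 1.54 for sr, 0.694 for kay, 0.219 for Jra and 0.639 for cbt, against 0.789, 1.60, 0.590, 0.160 and 0.802 in the pooled kept wells. In 2206 DD wells outside them, with a median of 1583 UMIs, they were 0.391 TP10K for Hr38, 0.924 for sr, 0.602 for kay, 0.132 for Jra and 0.578 for cbt, against 0.308, 0.960, 0.589, 0.187 and 0.806. The Hr38 levels of LD and DD thus lay closer together in the wells left out than in those kept, which was not tested.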

How the results depend on the processing

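The higher cbt in Pdf wells was called under every alternative run, and the lower Hr38 and sr in DD over all cells in all but 1, the sums per title number, where 0 of the 5 genes were called instead of 2. Elsewhere the number of the 5 genes called changed. In Pdf wells 2 became 1 with doubled thresholds or, since the filter removed Jra, thinned wells, and 3 against the other gates. In ITP wells 1 became 0 with sums of 6 or more wells or against the other 4 gates. In Trissin wells 2 became 0 with 6 or more wells, the size factors or total UMIs as the scale, 1 with thinned wells and 3 with DESeq2 (Hr38, adjusted p = 0.035). In CCHa1 wells 1 became 2 with DESeq2 or doubled thresholds, 0 against the other gates or with total UMIs and 3 with voom. In AstC/VGlut wells 0 became 1 with 6 or more wells, voom or the size factors, and 2 against the other gates. For DD against LD, Pdf wells went from 0 to 1 with DESeq2 or no filter, ITP wells from 2 to 0 with 6 or more wells, the entropy limit or doubled thresholds, Trissin wells from 0 to 2 without a filter, CCHa1 wells from 0 to 2 with DESeq2 and 1 with doubled thresholds or no filter, and AstC/VGlut wells from 1 to 2 with DESeq2 or no filter and 0 with doubled thresholds or, the filter having removed Hr38, thinned wells. A rhythm was called for 1 gene in ITP wells without a filter and in Trissin wells with DESeq2 or no filter. Pairs correlated over LD and DD together went from 1 to 3 with thinned wells, whereas within LD 1 became 0. Leaving out 1 batch gave 0 to 1 for the Trissin rhythm (cbt without CT02 batch 1), the AstC/VGlut gate (cbt without ZT06 batch 1), and DD against LD in the CCHa1 gate (sr without CT18 batch 2 or ZT10 batch 3) and the Pdf gate (sr without CT10 batch 1). It gave 0 to 2 for the CCHa1 gate (Jra without ZT22 batch 3) and for DD against LD in the ITP and AstC/VGlut gates (kay without CT06 batch 3 or CT14 batch 1), 1 to 2 for the Pdf gate and 2 to 3 for the Trissin gate (Hr38 without ZT14 batch 2).

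Values that turned in direction were uncalled in both fits. Over all cells Jra in DD against LD was -0.086 with thinned wells, -0.14 with the title number as a random effect and -0.091 to 0.16 with 1 batch left out. In the Pdf gate Hr38 was -0.056 with DESeq2, -0.068 with doubled thresholds and with voom, -0.0039 without a filter and -0.083 to 0.11 with 1 batch left out. Against the other gates sr was 0.33 in Pdf, 0.10 in CCHa1 and 0.40 in AstC/VGlut wells, and in ITP wells cbt was -0.21 and kay 0.13. With the size factors Hr38 was 0.074 and kay 0.10 in ITP wells, and with total UMIs 0.00066 and 0.023. With total UMIs kay over all cells in DD against LD was 0.022, Jra in Pdf wells 0.017 and cbt in AstC/VGlut wells 0.021. In the Trissin gate cbt was -0.055 with 6 or more wells, -0.10 with DESeq2, -0.51 against the other gates, -0.18 with doubled thresholds, -0.26 with voom and -0.083 to 0.22 with 1 batch left out. In AstC/VGlut wells kay was -0.0042 to 0.23 with 1 batch left out. For DD against LD, Jra was 0.11 in Pdf wells with doubled thresholds, and cbt in ITP wells -0.015 with 6 or more wells, -0.054 without a filter and -0.47 to 0.43 with 1 batch left out. The correlation of sr and cbt was 0.0352 with 1 TP10K added and 0.150 thinned, and thinned that of Hr38 and Jra was -0.0364 and of sr and kay 0.0736. The causes were not tested.

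With the number in the titles as a replicate block, 0 genes in all were called rhythmic in LD instead of 21 and 25 in DD instead of 0, with 0 of the 5 genes in each. Deviations of batches that share a number correlated above 0.1 in 7 of 14 LD pairs and 3 of 4 DD pairs. For pairs of other numbers this held in 25 of 67 in LD and 21 of 77 in DD. The median r was 0.135 in LD and 0.234 in DD for the same number, against -0.033 and -0.0044 for other numbers. The correlation within a title number was 0.368. Batches of the same number were thus more alike at the median, yet the main fits did not take the numbers as pairing. The p-values of the main DD against LD fit over all cells therefore do not allow for this likeness.

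Counts over all genes moved by more than 1.5 times as follows. LD rhythms (21) became 157 with DESeq2, 344 by library, 13 without a filter, 2 with time as a factor (which gives no amplitude), 11 without the 6 batches of high glial markers or few wells, and 10 to 25 with 1 batch left out. DD rhythms (0) became 23, 246, 1 and 3. DD against LD (658) became 1609 with total UMIs, 59 by title number, 364 with the number as a random effect, 1693 with DESeq2, 2639 by library, 412 without a filter, 1068 without the 6 batches and up to 966 with 1 left out, and the change of rhythm (0) became 24, 523 by library and up to 15. Voom called 3566 genes in the Pdf gate, 3445 in ITP, 3557 in Trissin, 3521 in CCHa1 and 3191 in AstC/VGlut, the other gates as reference gave 825 in ITP and 1000 in Trissin, and the size factors 1169 and total UMIs 1217 in CCHa1. Total UMIs gave, for DD against LD, 355 in Pdf, 111 in ITP, 108 in Trissin, 69 in CCHa1 and 199 in AstC/VGlut. DD against LD within gates with DESeq2, without a filter and with 6 or more wells gave 329 and 389 in Pdf (156), 108, 151 and 0 in ITP (41), 78, 157 and 9 in Trissin (36), 103, 91 and 15 in CCHa1 (24), and 174 and 249 in AstC/VGlut (62). Doubled thresholds gave 30 in Pdf and 10 in ITP, and thinned wells 12 in ITP. Gate rhythms without a filter rose to 538 (Pdf), 208 (ITP), 309 (Trissin), 184 (CCHa1) and 598 (AstC/VGlut), and with 6 or more wells were 5 in ITP, 14 in Trissin and 8 in CCHa1, with DESeq2 117, 170 and 100.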
